A study of Mus musculus with 3 samples.

Results

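B1-like innate B cells of the mouse aorta were examined by droplet single-cell RNA sequencing, and they numbered 1593 of 20903 barcodes kept from 25822 deposited ones. A barcode was taken as B1-like when it held at least 1 unique molecular identifier (UMI, 1 counted RNA molecule) of Cd79a, which encodes a chain of the B cell receptor, at least 1 UMI of Bhlhe41 and Zbtb32 together, and 0 UMIs of Fcer2a, Csf1r, Csf3r and Cd3e. Bhlhe41 and Zbtb32 encode transcription factors of innate-like B cells. Fcer2a encodes CD23 of follicular B cells, and the last 3 genes mark macrophages, neutrophils and T cells. The cells were described beside 1817 other B cells, which held Cd79a and Ms4a1 (CD20), met the same 4 limits and held no UMI of Bhlhe41 or Zbtb32. The members were thus chosen on measured values, and their difference from other B cells is a description.

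By its title, the study examined B cells and T cells of the vascular adventitia when raised homocysteine accelerates atherosclerosis. All animals were labelled ApoE-/- on the C57BL/6J background, and each of 3 groups gave 1 library. The control library came from mice labelled as control with no further treatment named, the HHcy library from mice whose drinking water held homocysteine at 1.8 g/L during 4 weeks, and the WD library from mice fed a western diet, also during 4 weeks. Live CD45+ cells were sorted from digested aortas with the adventitia left on, and the number, sex and age of the mice per library are not given in the sources used here. With 1 library per group there is no replicate check, and no p-value or test was possible.

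B1 cells are innate-like B cells that arise largely before and around birth, renew themselves in the body cavities and secrete natural IgM without prior immunization. Part of this IgM binds phosphorylcholine and oxidized lipids, which is why B1 cells are studied in atherosclerosis. Bhlhe41 restrains the proliferation of B1 cells and supports their B cell receptor repertoire and interleukin 5 receptor expression, while follicular B cells carry IgD, CD23 and the complement receptor CD21 (Cr2) and recirculate through lymphoid follicles.

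The 3 libraries held between 66789257 and 105180370 UMIs. B1-like cells had median depths of 11062.5 UMIs in the control library, 11867 for the library labelled HHcy and 11160.5 for the WD library, against 6314, 6043 and 5725 in other B cells, so a rule that asks for 1 UMI favours deeper barcodes. Between 20 and 24 barcodes were shared by each pair of libraries, and 0 of them were B1-like in both. Apoe, the gene disrupted in all animals by their label, reached 16.3 counts per 1000000 UMIs (CPM) in the control library and 19.3 in the WD library. It reached 374 CPM in the library labelled HHcy. In B1-like cells it stood at 2.46, 4.41 and 60.6 CPM in the control, WD and HHcy libraries, and 30.1% of the B1-like cells of the last library held an Apoe UMI. That library therefore goes against its genotype label and is called the library labelled HHcy throughout. Where the Apoe reads lie relative to the disrupted part of the gene is not given in the sources used here. Differences of that library from control cannot be told apart from a difference in Apoe genotype or sample origin.

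A small part of the B1-like barcodes also carried a programme of a further cell state or type. These barcodes numbered 42 of 752 (5.59%) in the control library, 69 of 491 (14.1%) for the library labelled HHcy and 39 of 350 (11.1%) for the WD library, and they held 9.81%, 28.0% and 16.9% of the B1-like UMIs. A plasma cell programme was present in 10, 32 and 7 of them in this order, and a stromal or endothelial programme in 2, 7 and 9. A macrophage or monocyte programme was present in 22, 32 and 21. Apoe is 1 of the 13 markers of this programme, so the count of the library labelled HHcy depends in part on its higher Apoe. The size of that part was not tested. The definition was chosen after the data were examined, and the counts and the leading results of each comparison between libraries below are also given without these barcodes. No doublet caller was run, and free RNA in the droplets was not removed.

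The label of the cells was checked on Sox5, Fcrl5 and Il5ra, which the rule did not use. Sox5 encodes a transcription factor of B1a cells, Fcrl5 an inhibitory receptor of innate-like B cells, and Il5ra the interleukin 5 receptor that supports B1 cell renewal. At least 1 of these 3 genes was detected in 75.8% of B1-like cells of the control library, 66.8% of those of the library labelled HHcy and 68.0% of those of the WD library. Among other B cells the shares were 41.8%, 24.2% and 29.4%. After each barcode was thinned to 3000 UMIs, Sox5 was detected in 20.7% of B1-like cells of the control library (95% Clopper-Pearson interval 17.9 to 23.8), 14.3% for the library labelled HHcy and 17.1% for the WD library. The shares were 10.2%, 3.46% and 6.91% in other B cells, and between 0% and 1.19% in T cells of 78 to 113 barcodes. All intervals here cover counting error only and leave out the spread between mice.

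At the same common depth, Il5ra was detected in 19.7%, 15.5% and 13.3% of B1-like cells of the control library, the library labelled HHcy and the WD library, and in 9.87%, 5.89% and 6.08% of other B cells. Fcrl5 was detected in 13.7%, 11.6% and 12.7%, against 8.19%, 5.51% and 5.52%. All 3 markers were thus more often detected in B1-like cells than in other B cells of the same library. Cd5, the surface protein that divides B1a from B1b cells, was detected in only 1.47%, 2.65% and 1.45% of B1-like cells, while T cells, which carry CD5 as well, reached 27.4% to 37.2%. The label B1-like therefore rests on Sox5, Fcrl5 and Il5ra, and a division into B1a and B1b cells was not detectable at this depth.

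**Figure D1:**
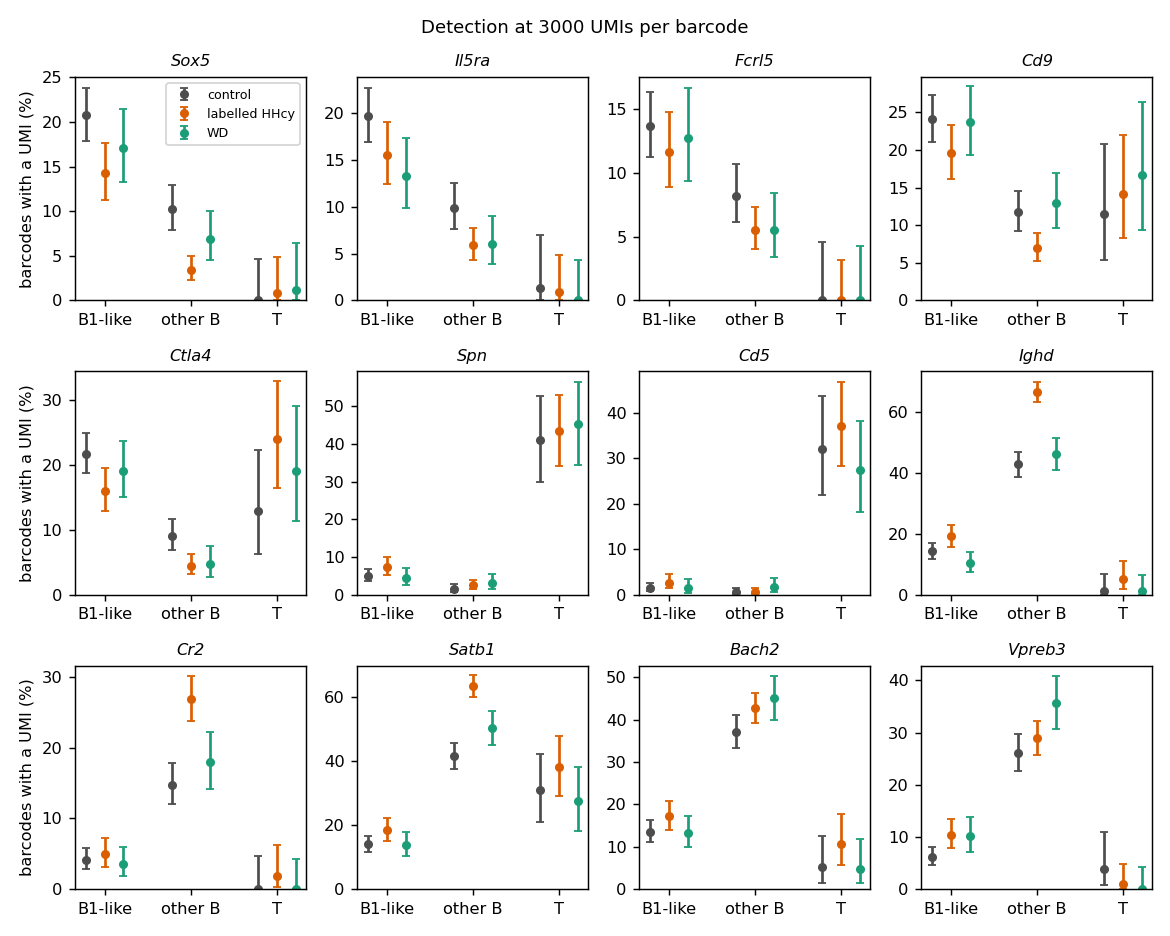
Share of barcodes with at least 1 UMI of 12 genes after thinning to 3000 UMIs (vertical axes, percent), in B1-like cells, other B cells and T cells of each library. Points are shares and bars are 95% Clopper-Pearson intervals. Sox5, Il5ra and Fcrl5 sit at or above 11.6% in B1-like cells of all 3 libraries and at or below 1.28% in T cells, while Ighd, Cr2, Satb1, Bach2 and Vpreb3 are lower in B1-like than in other B cells.

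The limits of the rule fall within a continuous range. B-lineage barcodes just outside it, with 0 UMIs of Bhlhe41 and Zbtb32, held at least 1 of Sox5, Fcrl5 and Il5ra in 37.5% of control, 22.0% of HHcy-labelled and 25.9% of WD barcodes. Those just inside, with exactly 1 UMI, held at least 1 of the 3 in 67.8%, 57.1% and 54.9%, at median depths of 9548, 10221 and 9011 UMIs against 6147.5, 5991 and 5682.5. Barcodes with 3 or more UMIs reached 82.6%, 73.9% and 76.2%. The share with these markers thus went up with the UMIs of Bhlhe41 and Zbtb32 and with depth, and their parts were not told apart. The other B cells of the control library held the most Sox5, Il5ra and Fcrl5. Both genes together were seen in 265 of 752, 160 of 491 and 140 of 350 members, and the remaining ones held 1 of the 2 genes. In the library labelled HHcy, the 208 members with Bhlhe41 alone held Sox5, Fcrl5 and Il5ra at 28.5, 30.8 and 29.1 CPM. Other B cells there held 20.1, 24.4 and 23.2 CPM, and members with Zbtb32 alone held 67.1, 38.6 and 78.6 CPM. The 3 markers thus set these 208 members only a little apart from other B cells. Their pooled UMIs also held Jchain at 6358 CPM.

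B1-like cells made up 12.5% of kept barcodes in the control library (752 of 6038), 6.02% for the library labelled HHcy (491 of 8155) and 5.22% for the WD library (350 of 6710). Within B-lineage barcodes free of Fcer2a, their share was 50.8% (48.2 to 53.4), 34.8% (32.3 to 37.4) and 43.6% (40.2 to 47.2). Against control, the library labelled HHcy stood at a log2 ratio of -0.55 (-0.67 to -0.42) and the WD library at -0.22 (-0.35 to -0.085). When B-lineage barcodes with Fcer2a were counted as well, the shares were 35.5%, 13.9% and 29.0%, and the log2 ratio in the library labelled HHcy was -1.35. Among B cells the B1-like share was thus lowest in the library labelled HHcy. Requiring 2 UMIs of Bhlhe41 and Zbtb32 moved the WD ratio to -0.01 (-0.20 to 0.18), so the lower share of the WD library among B-lineage barcodes was not seen under this stricter rule. A smaller number of B1-like cells and a larger number of other B cells cannot be told apart in such shares. The shares also depend on the limits of 0 UMIs. Before these limits, 1213 control, 1196 HHcy-labelled and 875 WD barcodes held Cd79a and Bhlhe41 or Zbtb32. Of these, 317, 465 and 439 held Csf1r and 169, 449 and 192 held Fcer2a, with or without the other excluded genes. Fcer2a alone left out 98 control, 176 HHcy-labelled and 57 WD barcodes. These count as non-members in the shares of B-lineage barcodes with or without Fcer2a. The part of free RNA in these exclusions was not tested.

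**Figure D2:**
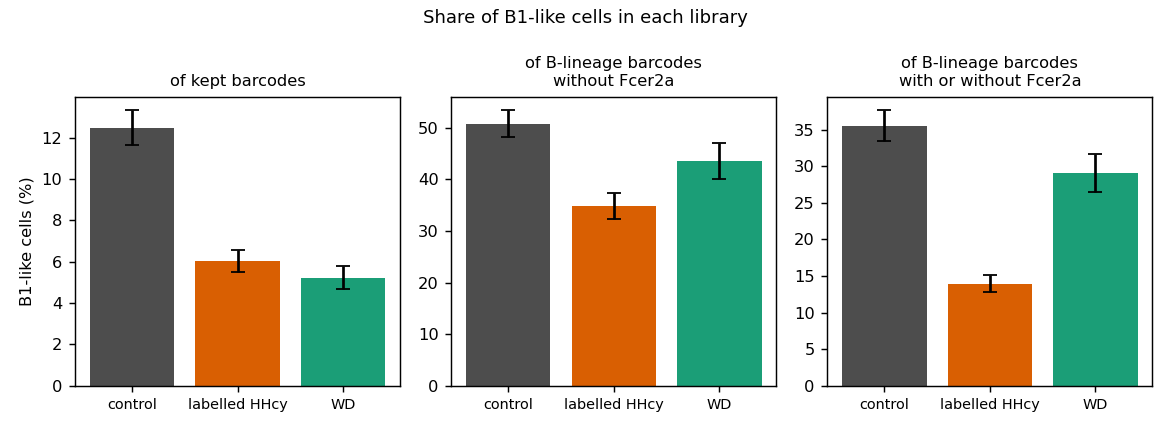
B1-like cells as a percentage of kept barcodes (left), of B-lineage barcodes without Fcer2a (middle) and of all B-lineage barcodes (right) in each library. Bars are shares and lines are 95% Clopper-Pearson intervals over barcodes. The control library is highest in all 3 panels, at 12.5%, 50.8% and 35.5%.

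B1-like cells were set against other B cells of the same library on UMIs summed over each set. Of 9700 genes with at least 20 UMIs over both sets in every library, 83 (0.856%) had a log2 ratio of CPM of at least 1 in all 3 libraries and 108 (1.11%) had a log2 ratio of -1 or less in all 3. Genes past this limit are called higher or lower below, and the rule had chosen the sets, so nothing is supported by the counts. The counts also changed with depth, and 11 genes were higher and 23 lower when barcodes were thinned to 3000 UMIs before the rule. Thinning also changes which genes reach 20 UMIs and which barcodes enter each set. These counts are therefore not directly comparable with 83 and 108. Zcwpw1, which encodes a reader of histone marks known from meiosis, stood at 266 CPM in control B1-like cells, 267 in those of the library labelled HHcy and 252 in those of the WD library. Other B cells held 96.2, 60.3 and 65.9 CPM. Its log2 ratio was 1.47 (1.32 to 1.62) in control, 2.15 (1.98 to 2.32) with the HHcy label and 1.94 (1.70 to 2.18) with the diet. Zcwpw1 was seen in 25.7% to 31.2% of B1-like cells at 3000 UMIs and in 1.77% to 2.56% of T cells.

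Other genes higher in B1-like cells encode a large scaffold protein (Ahnak2), CD30 ligand (Tnfsf8), galectin 1 (Lgals1), the plasma cell regulator Blimp-1 (Prdm1) and an endoplasmic reticulum protein (Ckap4). Ahnak2 stood at 77.4, 43.2 and 62.7 CPM against 25.7, 7.28 and 11.6 CPM in other B cells of the control library, the library labelled HHcy and the WD library. Tnfsf8 stood at 42.0, 27.7 and 24.1 CPM against 11.8, 4.68 and 5.59. Prdm1 stood at 42.4, 52.1 and 29.5 CPM against 14.6, 12.6 and 7.98. For each of these genes the B1-like value exceeded that of other B cells in each library, with a smallest log2 ratio of 1.59 for Ahnak2, 1.83 for Tnfsf8 and 1.54 for Prdm1. Zfp811, a zinc finger gene, and 1810046K07Rik completed the named genes beside Jchain and Slpi.

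Jchain, which joins polymeric IgM and IgA, and Slpi, a secreted protease inhibitor, headed the ranking but came from few cells. Jchain reached 339.7, 2839.9 and 1400.4 CPM in B1-like cells of the control, HHcy-labelled and WD libraries, and 96.8%, 67.4% and 99.2% of these UMIs lay in the 10 cells richest in them. Without barcodes carrying a second programme, the log2 ratios of Jchain to other B cells were -1.89, -0.91 and 0.56. Those of Slpi were -0.82, -2.24 and 0.14, against 2.48, 3.70 and 2.34 with all barcodes. The plasma cell programme was defined in part by Jchain, so the lower Jchain ratios follow from the definition and support nothing. Most of the excess of Slpi sat in the few barcodes with a second programme.

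**Figure D3:**
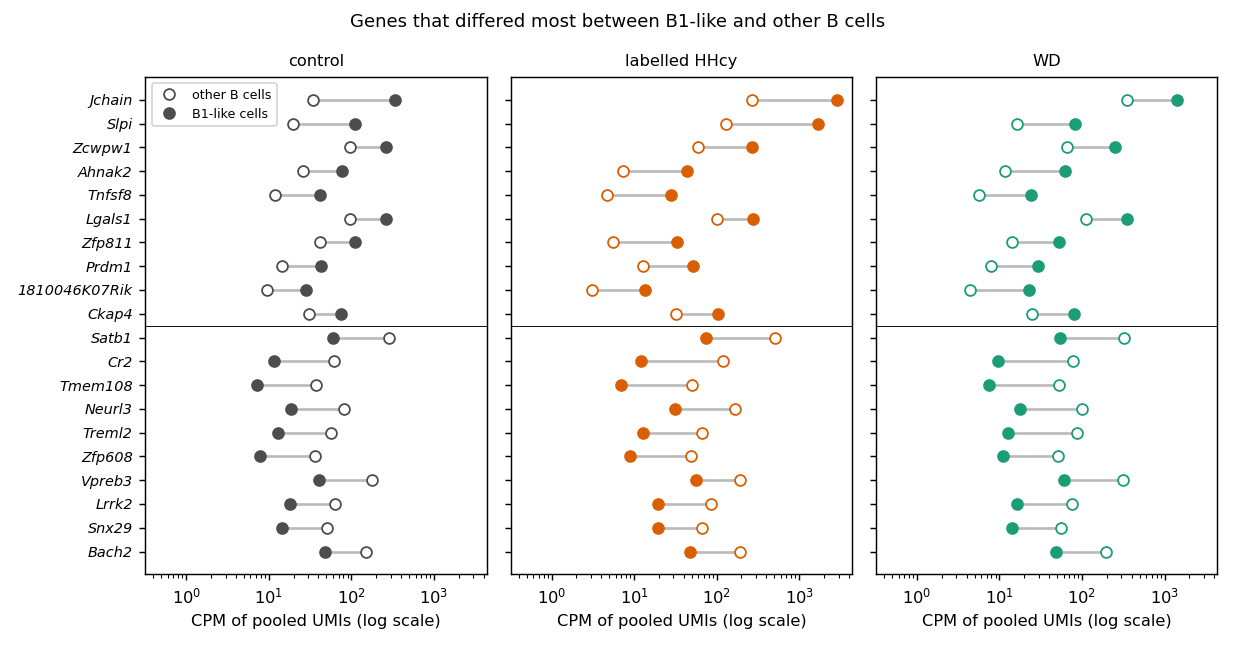
CPM of pooled UMIs (horizontal log axis) of the 10 genes highest and the 10 genes lowest in B1-like cells relative to other B cells, in each library. Filled points are B1-like cells and open points are other B cells, with no error drawn. Satb1 lies at 54.3 to 75.0 CPM in B1-like cells and at 283 to 509 CPM in other B cells.

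Genes of naive and follicular B cells were lower. Ighd, the constant region of IgD, stood at 61.9, 80.9 and 46.7 CPM in B1-like cells of the control, HHcy-labelled and WD libraries and at 245, 533 and 334 CPM in other B cells. The log2 ratios were -1.99 (-2.13 to -1.84), -2.72 (-2.85 to -2.59) and -2.84 (-3.07 to -2.61). Cr2, the complement receptor CD21, stood at 11.7, 12.0 and 9.52 CPM against 61.6, 119.7 and 77.0 CPM. The chromatin organizer Satb1, the repressor of plasma cell fate Bach2, the ubiquitin ligase gene Neurl3 and the pre-B cell gene Vpreb3 were also lower, with the log2 ratio of Satb1 between -2.76 and -2.23 and that of Bach2 between -2.01 and -1.64. Tmem108, Treml2, Zfp608, Lrrk2 and Snx29 completed the named genes. B1-like cells were deeper than other B cells, and median log2 ratios over the 3 libraries moved when barcodes were thinned to 3000 UMIs before the rule. Vpreb3 moved from -2.12 to -0.71 and Ckap4 from 1.68 to 0.82, short of the limit for a call. Other named genes moved as well. Lgals1 went from 1.46 to 1.00, Bach2 from -1.99 to -1.05 and Tmem108 from -2.83 to -1.07, while 1810046K07Rik went from 2.10 to 2.23. Of 13 follicular and naive genes, 6 were called lower and 0 higher, beside 1.11% and 0.856% of all genes tested. Their medians were -1.07, -1.33 and -1.02 in the 3 libraries, beside -0.12, -0.15 and -0.12 over all genes. Cxcr5, the receptor that guides B cells to follicles, went the other way by a small amount, with log2 ratios of 0.26, 0.29 and 0.21.

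Of 20 genes of B1 identity that could be compared, 6 were called higher (Ctla4, Spn, S100a6, Tppp3, Zfp811 and Nid1) and 0 lower. Over all genes tested, 0.856% were called higher and 1.11% lower. Intervals lay above 0 in all 3 libraries for 15 of the 20, beside 4.23% of all genes tested. Their median log2 ratios were 0.72, 1.37 and 0.94. The rule had chosen the sets, and the list was chosen with earlier results of these data known, so these counts are a description. Ctla4, an inhibitory receptor best known from T cells, was seen at 3000 UMIs in 21.7%, 15.9% and 19.1% of B1-like cells, close to 12.8% to 23.9% of T cells and above 4.48% to 9.03% of other B cells. Spn (CD43), a classical B1 surface marker, stood at 29.7, 32.1 and 31.6 CPM against 12.2, 11.3 and 13.2 CPM. Bhlhe40, the close relative of Bhlhe41, had intervals below 0 in all 3 libraries, at 47.5, 51.8 and 51.1 CPM against 118, 79.0 and 108 CPM. Cd5, Pdcd1lg2 (PD-L2), Ahr and Arid3a had intervals that reached 0 in at least 1 library.

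Among genes of function, antigen presentation stood lower in B1-like cells. The 95% interval lay below 0 in all 3 libraries for 12 of 14 genes of this list, against 12.6% of all genes tested. Of the list, 1 gene was called lower, beside 1.11% of all genes tested. It was Icosl, the ligand of the costimulator ICOS, at 5.47, 8.42 and 8.36 CPM against 22.2, 43.0 and 22.0 CPM. H2-Aa, a chain of MHC class II, stood at 2730.4, 2717 and 2852 CPM against 3255, 3896 and 3265 CPM, with log2 ratios between -0.52 and -0.20. The costimulator gene Cd80 was the exception, with 42.0, 33.7 and 38.5 CPM against 27.2, 9.70 and 13.6 CPM. Il10, an anti-inflammatory cytokine gene, stood at 31.3, 44.8 and 42.3 CPM against 17.1, 19.4 and 12.4 CPM, with log2 ratios of 0.87, 1.21 and 1.77. The list of B cell cytokine genes as a whole went the other way, with medians of -0.58, -0.53 and -0.38. Of 9 genes compared there, 0 were called. Intervals lay below 0 in all 3 libraries for 5 of them and above 0 for 1, beside 12.6% and 4.23% of all genes. Among homing genes, the chemokine receptor gene Cxcr4 was called lower, at 205, 162 and 175 CPM against 493, 448 and 475 CPM, and Cxcr3 was called higher from 40, 85 and 30 UMIs, of which 72.5% to 91.8% lay in the 10 richest cells. The interferon-stimulated list stood lower in B1-like cells, with 9 of 18 intervals below 0 in all 3 libraries, beside 12.6% of all genes tested. Its medians were -0.72, -0.79 and -0.37, beside -0.12, -0.15 and -0.12 over all genes. Of the 18 genes, 1 was called lower, beside 1.11% of all genes tested.

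The antibody class was read from the constant-region UMIs of each cell. Of B1-like cells with at least 10 such UMIs, Ighm was the leading class in 96.9% of 743 control cells (95.4 to 98.0), 94.1% of 478 HHcy-labelled cells (91.6 to 96.1) and 94.96% of 337 WD cells (92.0 to 97.0). Most B1-like cells were thus IgM cells with little IgD. In the control library Ighm also led in 96.2% of 582 other B cells, so this leading class was not particular to B1-like cells there. IgG genes led in 17, 23 and 12 B1-like cells of the 3 libraries, and Igha in 4, 5 and 5. Counts of Ighg2b and Ighg2c are uncertain, since these near-identical genes can share reads. The 32 barcodes with a plasma cell programme in the library labelled HHcy were mixed, with Ighm leading in 11, an IgG gene in 18 and Igha in 3. Lambda light chains led in 13.8%, 12.4% and 14.8% of B1-like cells and in 13.0%, 8.70% and 14.2% of other B cells.

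Heavy-chain V segments could be read in few cells. A dominant Ighv gene, with at least 10 Ighv UMIs and 80% of them in 1 gene, was found in 3, 21 and 4 B1-like cells of the control, HHcy-labelled and WD libraries, and each of these 28 cells had a plasma cell programme. In the library labelled HHcy the 21 cells used 13 Ighv genes, with Ighv1-78 in 4 cells, Ighv3-6 in 3, and Ighv1-74, Ighv1-81 and Ighv1-82 in 2 each. Pairs of a heavy and a kappa V gene seen in more than 1 cell were Ighv1-74 with Igkv17-121 and Ighv1-78 with Igkv4-61, in 2 cells each. Reads of V segments that resemble each other can be split or lost in counting, so these counts are uncertain. Ighv11-2 and Ighv12-3, which encode the phosphatidylcholine-binding receptors typical of B1 cells, were seen in 7 and 6 control B1-like cells, 5 and 7 of the library labelled HHcy, and 0 and 1 of the WD library. Since an Ighv UMI was seen in only 13.0%, 18.3% and 13.1% of B1-like cells, these counts do not bound how many cells use a V gene. Among other B cells Ighv11-2 was seen in 2 of 634, 0 of 806 and 1 of 377. Their kappa partners Igkv14-126 and Igkv4-91 were seen in 13 and 10 control, 15 and 6 HHcy-labelled and 3 and 2 WD B1-like cells, and in 1 to 4 other B cells per library. In the library labelled HHcy, 5 of the 7 cells with Ighv12-3 and 4 of the 6 with Igkv4-91 had a plasma cell programme. Ighv12-3 reached 25 UMIs in 1 of these cells. Without second-programme barcodes, 2 cells with Ighv12-3 and 2 with Igkv4-91 remained. Among cells with a dominant heavy and a dominant kappa V gene, Ighv12-3 was paired with Igkv10-96 in 1 cell. Igkv4-91 was paired with Ighv1-82 in 1 cell.

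B1-like cells of the library labelled HHcy were compared with those of the control library. Of 11102 genes, 480 (4.32%) were higher by a log2 ratio of at least 1 and 198 (1.78%) lower. Without barcodes carrying a second programme, 119 were higher and 168 lower of 10402. The 8 leading genes, Col3a1, Serpinh1, Col1a2, Sparc, Col1a1, Mgp, Dcn and Sfrp4, belong to fibroblasts and other matrix-producing cells. Col3a1 had 695 UMIs against 8 and 99.1% of them lay in 10 cells. Without second-programme barcodes Col3a1 stood at 1.59 against 0.743 CPM. The summed level of the 11 stromal and endothelial markers was 77.7 CPM in control and 456 CPM in HHcy-labelled B1-like cells, with Kdr and Myh11 at 0 in both, and 79.3 and 81.9 CPM without these barcodes. The stromal programme was defined on such markers, so the lower sum follows from the definition and supports nothing.

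Genes of plasma cells were higher in B1-like cells of the library labelled HHcy. Of 11 plasma cell genes, 8 were called higher with a median log2 ratio of 2.19, beside 4.32% of all genes called higher. Without second-programme barcodes 1 of 9 was called, with a median of 0.18. Since the plasma cell programme was defined by these same genes, this lower count follows from the definition and supports nothing. Xbp1, the regulator of secretion, stood at 68.9 CPM in control and 315 CPM in HHcy-labelled B1-like cells, a log2 ratio of 2.19 (2.06 to 2.32), and at 0.18 without them. Barcodes with a plasma cell programme made up 1.33% (0.639 to 2.43) of control, 6.52% (4.50 to 9.08) of HHcy-labelled and 2% (0.808 to 4.08) of WD members. Of 16 cell cycle genes, 5 were called higher, beside the same 4.32% of all genes, with Mki67, a marker of dividing cells, at 38.5 and 87.2 CPM. Without second-programme barcodes their median moved from 0.86 to -0.31.

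The 8 leading genes lower in the library labelled HHcy were haemoglobin genes (Hba-a1, Hba-a2, Hbb-bs and Hbb-bt), mast cell proteases (Mcpt4, Cma1 and Cpa3) and Gzma of cytotoxic cells. Hba-a2 had 577 UMIs in control B1-like cells, 99.7% of them in 10 cells, against 2 in the library labelled HHcy, and the haemoglobin genes are uncertain because near-identical copies can share reads. The 5 erythroid markers summed to 307 CPM in control and 7.56 CPM in HHcy-labelled B1-like cells, and to 6.19 and 6.34 CPM without second-programme barcodes. The erythroid programme was defined on these markers, so the lower control sum follows from the definition and supports nothing. Gzma had 214 UMIs in 9 control cells against 10 UMIs in 10 cells.

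Some differences remained without these barcodes. Zfp811 was seen in 30.6% of control B1-like cells, 13.8% of HHcy-labelled and 19.4% of WD cells, and stood at 109.8, 33.5 and 52.9 CPM. The log2 ratio to control was -1.71 (-1.92 to -1.50) in the library labelled HHcy, and -1.46 without second-programme barcodes. In the WD library it was -1.05 (-1.27 to -0.84), and -0.94 without these barcodes, which falls short of the limit for a call. The control level was thus the highest, and both ratios share the control cells. In other B cells Zfp811 followed the same order, at 41.4, 5.54 and 14.4 CPM. Apoe was higher in the library labelled HHcy, as given above, with a log2 ratio of 4.62 and 4.84 without second-programme barcodes. Apoe is itself among the macrophage and monocyte markers that define part of those barcodes. Atf3, a stress-induced transcription factor gene, was not called, at 1072 CPM in control, 618 in HHcy-labelled and 1034 in WD B1-like cells. Its HHcy-labelled log2 ratio was -0.79, and -0.57 without second-programme barcodes, and other B cells held 629, 235 and 572 CPM.

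B1-like cells of the WD library differed from control in the interferon-stimulated genes. Type I interferon induces this set of antiviral genes largely through the interferon-stimulated response element in their promoters. Of 10811 genes compared, 405 (3.75%) were called higher and 155 (1.43%) lower in the WD library, and 152 and 159 of 10241 without second-programme barcodes. Of 19 interferon-stimulated genes compared, 10 (Ifit3, Ifit2, Ifit3b, Isg15, Ifit1, Rtp4, Rsad2, Irf7, Xaf1 and Oasl2) were called higher and 0 lower, with a median log2 ratio of 1.07 beside 0.01 over all genes. Without second-programme barcodes 9 of 19 were called higher and the median was 0.85. In the library labelled HHcy, Isg15 alone of the 19 was called higher, with a median of -0.03 over the list. The 2 comparisons share the control cells.

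Rtp4, an interferon-induced chaperone gene, was seen in 8.51% of control, 9.37% of HHcy-labelled and 23.4% of WD B1-like cells and stood at 8.94, 7.99 and 28.8 CPM. Its log2 ratio in the WD library was 1.69 (1.27 to 2.11), and 1.57 without second-programme barcodes. Ifit3, which encodes an RNA-sensing effector, stood at 4.13, 4.57 and 22.1 CPM, with a WD ratio of 2.42 (1.85 to 3.005), and 1.72 without these barcodes. Both genes were thus highest in the WD library, and the HHcy-labelled ratios of -0.16 and 0.14 had intervals that reached 0. Rsad2, an antiviral enzyme gene, stood at 7.71, 4.57 and 18.3 CPM, a ratio of 1.25 (0.77 to 1.74), and 1.11 without them. Irf7, the regulator that amplifies the response, stood at 11.1, 15.8 and 25.8 CPM, with WD ratios of 1.22 and 1.12 with and without them. Isg15, a ubiquitin-like modifier, stood at 9.27, 18.5 and 31.3 CPM, but 80% of its HHcy-labelled and 71.1% of its WD UMIs lay in 10 cells, and its WD ratio of 1.76 was 0.38 without second-programme barcodes. Stat2, a signal transducer of the interferon receptor, had a WD ratio of 0.22, with an interval that reached 0.

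Other B cells of the WD library were also higher in these genes, with Rtp4 at 16.0, 21.7 and 43.5 CPM and Ifit3 at 5.91, 11.4 and 24.0 CPM in the control, HHcy-labelled and WD libraries. In macrophages Rtp4 stood at 68.0, 81.4 and 110.1 CPM, above the B1-like level in each library. The higher level is therefore not shown to be particular to B1-like cells, and the part of free RNA in it was not tested.

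**Figure D4:**
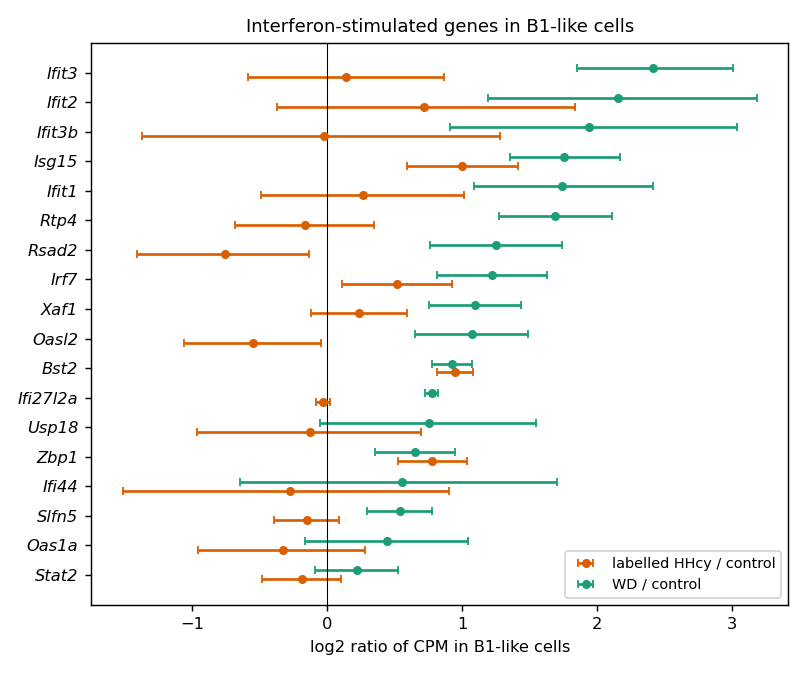
Log2 ratio of CPM to control in B1-like cells for 18 of the interferon-stimulated genes, with 95% counting intervals, for the library labelled HHcy (orange) and the WD library (green). In the WD library all 18 points lie above 0, from 0.22 for Stat2 to 2.42 for Ifit3. In the library labelled HHcy the points lie between -0.76 and 1.00.

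Promoter sequences were read because members of this list moved together in the WD library. Promoters were the 300 bases from 250 before to 50 after a gene's start in RefSeq (GRCm38.p6), and the core of the interferon-stimulated response element, GAAA followed after any 2 bases (NN) by a further GAAA, was searched on both strands, where it reads TTTC, NN and TTTC on the opposite one. Of the 10 genes called higher, 9 had a promoter in the table and 5 held a match. Of the 9 that were not called, 5 had a promoter and 4 held one. Among all genes with a promoter there, 3.99% held a match. The stretches around the matches of Ifit1, Ifit3 and Rsad2 are shown with matches in capitals, 5′ to 3′ on the strand of the gene, since these genes were called higher with and without second-programme barcodes. They lie at chr19:34640745-34640853 (plus strand), chr19:34583333-34583456 (plus strand) and chr12:26456523-26456612 (minus strand).
Ifit1: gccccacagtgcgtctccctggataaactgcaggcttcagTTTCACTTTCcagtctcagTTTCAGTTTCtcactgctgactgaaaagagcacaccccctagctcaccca
Ifit3: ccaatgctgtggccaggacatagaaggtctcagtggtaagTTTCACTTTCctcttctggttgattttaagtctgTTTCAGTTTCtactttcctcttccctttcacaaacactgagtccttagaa
Rsad2: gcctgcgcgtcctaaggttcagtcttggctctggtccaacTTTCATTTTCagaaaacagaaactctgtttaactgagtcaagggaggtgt
Ifit1 and Ifit3 each held 2 matches and Rsad2 held 1. A match is a run of letters and does not show binding. The stretch of Ifit3b was identical to that of Ifit3, and counts of these near-identical genes are uncertain. CACGTG, an E-box that factors of the family of Bhlhe41 can bind, was held by 13.8% of the genes called higher in B1-like cells with a promoter in the table, 11.7% of those called lower and 12.6% of all genes tested.

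The 8 genes leading the WD comparison upward were again matrix and stromal genes (Col3a1, Col1a2, Mgp, Serpinh1, Dcn, Col1a1, Serping1 and Sparc). Mgp had 2119 UMIs against 37, and 97.0% of them lay in 10 cells. The stromal and endothelial markers summed to 795.6 CPM, with none at 0, and to 90.5 CPM without second-programme barcodes. This lower sum again follows from the definition of the stromal programme. The genes leading downward were the cytotoxic genes Gzma, Klre1, Klra4, Klra8 and Nkg7, all from 9 or fewer control cells, and Gdpd3, Retnla and Car7. Gdpd3, a lysophospholipase gene, had 93 UMIs in 52 control cells, 3 for the library labelled HHcy and 4 for the WD library. Retnla, a gene of alternatively activated macrophages, stood at 67.5, 50.8 and 15.3 CPM in B1-like cells, at 137, 65.7 and 119.8 CPM in other B cells and at 1644, 1702 and 634 CPM in macrophages of the control, HHcy-labelled and WD libraries. The lower WD level was thus seen in B1-like cells and macrophages but not to that extent in other B cells, and the part of free RNA in it was not tested. Car7, a carbonic anhydrase gene, had 40 UMIs in 27 control cells, 26 for the library labelled HHcy and 1 for the WD library. Without second-programme barcodes the WD log2 ratios of Gdpd3, Retnla and Car7 were -3.49, -2.49 and -4.11.

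The median over cholesterol synthesis and uptake genes lay below 0 in both libraries, while few of the genes were called. Of 18 genes, 0 were called in the library labelled HHcy, where 9 intervals lay below 0 and 0 above, beside 20.1% and 14.2% of all genes. In the WD library 1 was called lower, beside 1.43% of all genes. There 5 intervals lay below 0 and 1 above, beside 9.35% and 12.2% of all genes. The medians were -0.38 for the library labelled HHcy and -0.35 for the WD library, and -0.39 and -0.40 without second-programme barcodes. Hmgcs1, an early enzyme of the pathway, stood at 22.2, 13.1 and 11.6 CPM in control, HHcy-labelled and WD cells. Its ratio to control on the log2 scale was -0.76 (-1.13 to -0.40) under the HHcy label and -0.94 (-1.41 to -0.48) under the diet, and -0.73 and -1.03 without second-programme barcodes. Scd2, a fatty acid desaturase gene, was higher in the WD library instead, at 49.1, 37.1 and 67.8 CPM. In other B cells Hmgcs1 stood at 24.1, 15.2 and 12.4 CPM, in the same order.

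**Figure D5:**
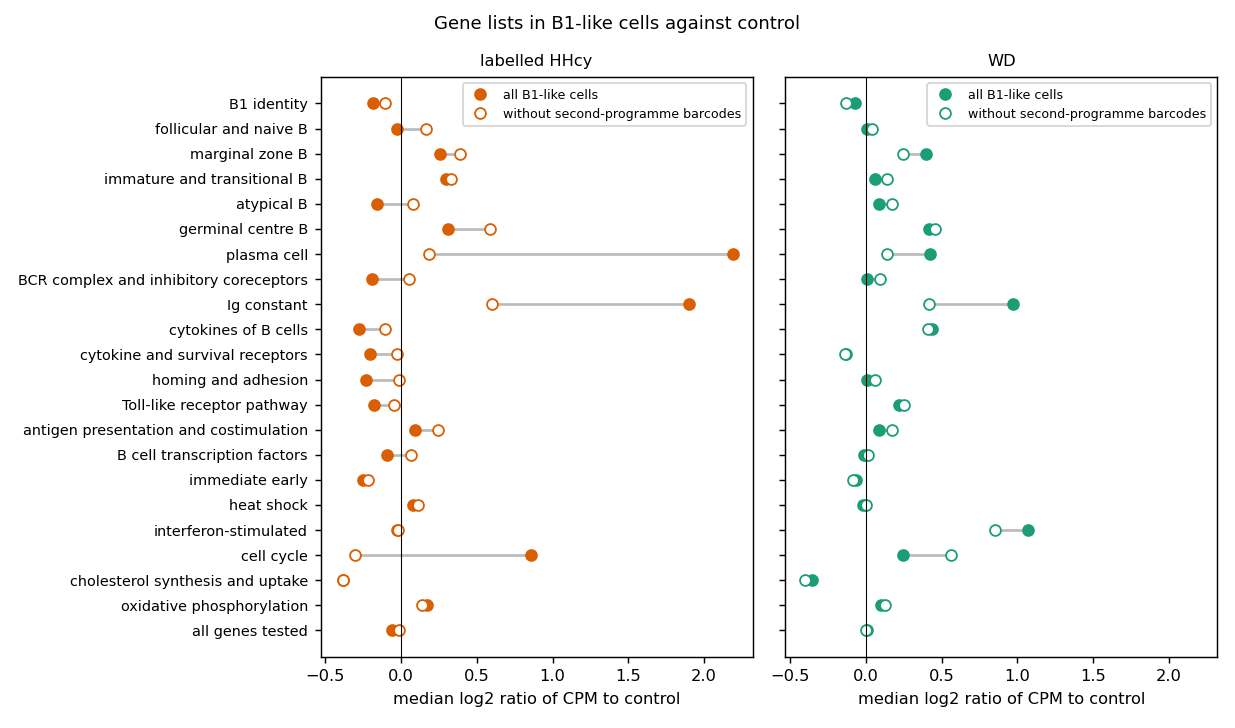
Median log2 ratio of CPM to control over the genes of each list in B1-like cells of the library labelled HHcy (left) and the WD library (right). Filled points use all B1-like cells, open points leave out barcodes with a second programme, and no error is drawn. The plasma cell median falls from 2.19 to 0.18 on the left, while the interferon-stimulated median on the right stays between 0.85 and 1.07.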

How the data were processed

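The authors' deposited matrices hold raw UMI counts per gene and barcode, 1 matrix per library of 32285 genes, and per the file headers Cell Ranger 4.0.0 wrote them. By contrast, version 2.2.0 and the build mm10 stand in the submitters' processing notes. Barcodes with at least 200 detected genes and at most 10% mitochondrial UMIs were kept, and doublets were limited by the marker rules alone. The members and gene lists were chosen with earlier results of these data known. UMIs were summed over each set and scaled to counts per 1000000 (CPM). Log2 ratios of CPM carry exact conditional binomial intervals, shares carry Clopper-Pearson intervals and log2 ratios of shares carry normal-approximation intervals over barcodes, all at 95%, and a count of 0 was taken as 3 counts. A gene was compared at 20 UMIs over both sets and called at a log2 ratio of 1.

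A second programme meant at least 7 of 11 plasma genes with 10 Jchain UMIs, 6 macrophage or monocyte markers, 4 markers of T cells, NK cells, neutrophils or dendritic cells, or 3 of mast, stromal or erythroid cells. Named genes were those with the interval bound farthest from 0 (10 in each direction against other B cells, 8 against control), without immunoglobulin, mitochondrial and rule genes, and the largest differences of each list. V genes were named if dominant in at least 2% of cells with a dominant V gene. Other named genes were chosen after their values were seen. The functions were tested on simulated data. Alternatives are given in the closing section. Python 3.11.15, numpy 2.4.6, scipy 1.17.1, pandas 2.3.3 and matplotlib 3.10.9 were used. The files held 0 unused sample columns.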

Additional observations from a re-analysis of the deposited data

Results flagged for a closer look

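With all B1-like cells counted, haemoglobin genes were lower than control in the library labelled HHcy and higher in the WD library, and the difference between the 2 ratios was not tested. These directions rest on few barcodes, and the opposite directions did not hold for any of the 5 genes here without those carrying a second programme. The log2 ratios of Hba-a2 were -7.82 and 1.40 in this order, those of Hbb-bs -5.85 and 1.53, those of Hba-a1 -4.27 and 1.37, and those of Hbb-bt -4.71 and 2.34. The mast cell protease gene Cma1 did the same, with -4.75 and 1.27. Barcodes with an erythroid programme numbered 3 in the control, 1 in the HHcy-labelled and 2 in the WD B1-like cells. Without second-programme barcodes no library held more than 18 UMIs of any of these 5 genes. The HHcy-labelled ratios of Hba-a1 and Hbb-bs were then 1.36 and 0.68, and the WD ratios of Hba-a2, Hbb-bt and Cma1 were -2.15, -0.67 and -0.41. The erythroid and mast cell programmes were defined on markers of these cells, so the loss of the opposite directions follows from the definition and supports nothing.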

How the results depend on the processing

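No paired analysis was possible because each group has 1 library. Depth limits rare transcripts and V segments, counting intervals leave out the spread between mice, and genes with 3 or fewer UMIs in both sets got no value. Of the results that answer a comparison, 91 alternative values stayed close to the reported one and 46 moved. The cause of each shift was not tested beyond the setting itself. Values are given as HHcy-labelled or WD over control, as genes called in B1-like against other B cells, and as percentages of B1-like cells.

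With at most 5% mitochondrial UMIs the HHcy-labelled share ratio was -0.69, 319 genes were lower in that library, 9.42% of its cells had a dominant Ighv gene and 88.5% were IgM or IgD cells. Without barcodes holding 3 markers of another lineage, the HHcy-labelled share ratio was -0.72, 53 genes were higher than in other B cells, 122 genes were higher in the library labelled HHcy, and 131 were higher and 344 lower in the WD library. Dominant Ighv genes there stood at 0.426% for HHcy, and IgM or IgD at 97.0% for HHcy and 98.0% for WD. Slpi turned to -0.089, Hba-a2 to 0.43, Hba-a1 to 1.97 and Gzma to 1.43 for HHcy, and Gzma to 1.79 and Nkg7 to 0.21 for WD. With 2 UMIs of Bhlhe41 and Zbtb32 the WD share ratio was -0.012.

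After thinning to 3000 UMIs the HHcy-labelled share ratio was -0.996, 11 genes were higher and 23 lower than in other B cells, 130 were higher for HHcy and 165 for WD. Dominant Ighv genes fell to 0% in both, IgM or IgD stood at 97.9% for WD, Mgp turned to -0.89 for HHcy, and Gzma to 3.57 and Nkg7 to 2.21 for WD. With Ms4a1 required, 189 genes were higher for WD, and for HHcy 2.55% had a dominant Ighv gene and 96.1% were IgM or IgD cells. With Fcer2a allowed, 181 genes were higher and 168 lower than in other B cells, and the HHcy-labelled share ratio was -1.35.

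At 50 UMIs per gene, 50 genes were higher than in other B cells, 236 higher and 88 lower for HHcy, and 172 higher and 50 lower for WD. At 1 UMI these were 130 higher and 263 lower than in other B cells, 2197 and 1483 for HHcy, and 3377 and 466 for WD. With the mean of CPM over cells, 126 genes were higher than in other B cells.

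Leaving out second-programme barcodes, chosen after seeing the data, gave 119 genes higher for HHcy and 152 for WD. Dominant Ighv genes fell to 0% in each library, and IgM or IgD stood at 98.4% in control and 98.3% for HHcy. Jchain turned to -0.91 and Slpi to -0.82 against other B cells. Col1a1 turned to -0.91, Hbb-bs to 0.68, Hba-a1 to 1.36 and Gzma to 1.04 for HHcy, and Gzma to 1.54, Klre1 to 0.76 and Nkg7 to 0.91 for WD.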
